A study of Mus musculus with 16 samples.

Results

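Neutrophil genes, 10 in number, were followed through mouse tumours with and without Trp53bp1, which codes for 53BP1, a protein of DNA double-strand break repair. They were S100a8, S100a9, Csf3r, Cxcr2, Il1b, Retnlg, Trem1, Ngp, Camp and Ly6g, chosen by name, and all 10 were found among the 18635 genes listed in any of the count tables. By the labels, RNA was sequenced from tumours that grew in syngeneic mice from implanted cells of ID8, a line from mouse ovarian surface epithelium, or of KPC, a pancreatic cancer line of mouse origin. The groups were 5 KPC tumours with the Trp53bp1 knockout (genotype Trp53bp1 KO), 5 wild-type KPC tumours (WT), 3 ID8 tumours with the knockout and 3 wild-type ID8 tumours. The labels' note on extraction speaks of cells and not of tumour tissue. The knockout was made in the implanted lines, so host cells in a tumour were not described as carrying it. Host strain, age, the time of tumour collection and whether a knockout line is 1 clone are not given in the sources used here. The labels number the tumours as biological replicates without stating whether each came from its own mouse, so p-values measure the spread between these samples.

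Neutrophils are short-lived granulocytes that are made in the marrow under the growth factor G-CSF and are drawn into tissue by chemokines of the CXC family. They fill their granules in order while they mature, so that transcripts of granule proteins such as Ngp and Camp mark young marrow cells, while Retnlg, Cxcr2, Csf3r and the S100a8 and S100a9 pair persist in mature cells. In pancreatic tumours they are a known part of the myeloid infiltrate. Several of these genes are also read in other cells, for example Il1b, Csf3r and Trem1 in monocytes and macrophages, so in whole tumour RNA a level belongs to no single cell type. Fewer cells of a type and less RNA per cell cannot be told apart in such data.

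In KPC tumours the 10 genes did not move as 1 block. Retnlg and Ly6g were higher in every knockout library than in any wild-type library and passed the test, while S100a8, S100a9, Csf3r, Cxcr2, Il1b and Trem1 did not pass, and Ngp and Camp were close to absent. Ly6g entered the test only through the knockout libraries. Among all tested genes 6.67% were called higher, and 5.34% were higher in knockout without overlap. Retnlg was 15.2-fold higher in knockout tumours, and Il1b, which codes for the cytokine interleukin-1 beta, had nearly the same mean in both genotypes. ID8 libraries held almost no reads of any of the 10 genes.

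The stretches just before the start sites of Retnlg and Ly6g, the pair that rose, and of S100a8 and S100a9, which varied together without passing, are shown for what they share and do not share. They are the 250 bases upstream of the first RefSeq start site, 5′ to 3′ on the strand of the gene, in GRCm38.p6, another build than the GRCm39 on which reads were counted. They lie at chr16:48872358-48872607 (plus strand), chr15:75155011-75155260 (plus strand), chr3:90668821-90669070 (plus strand) and chr3:90695722-90695971 (minus strand). Capitals mark the C/EBP motif TTGCNNAA and the PU.1 motif GAGGAAG, each searched on both strands.
Retnlg: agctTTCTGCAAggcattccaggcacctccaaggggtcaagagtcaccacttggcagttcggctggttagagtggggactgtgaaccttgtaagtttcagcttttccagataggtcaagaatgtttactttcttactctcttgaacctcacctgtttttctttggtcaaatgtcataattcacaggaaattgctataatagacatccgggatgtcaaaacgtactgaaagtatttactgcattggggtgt
Ly6g: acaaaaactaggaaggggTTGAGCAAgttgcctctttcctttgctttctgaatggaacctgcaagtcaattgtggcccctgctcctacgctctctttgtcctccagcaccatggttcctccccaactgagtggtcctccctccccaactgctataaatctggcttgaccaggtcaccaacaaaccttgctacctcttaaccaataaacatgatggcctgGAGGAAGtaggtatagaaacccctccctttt
S100a8: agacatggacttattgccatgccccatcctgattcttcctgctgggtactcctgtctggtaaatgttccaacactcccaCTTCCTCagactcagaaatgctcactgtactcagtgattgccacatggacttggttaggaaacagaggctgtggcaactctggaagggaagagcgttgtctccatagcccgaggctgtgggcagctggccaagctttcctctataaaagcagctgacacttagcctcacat
S100a9: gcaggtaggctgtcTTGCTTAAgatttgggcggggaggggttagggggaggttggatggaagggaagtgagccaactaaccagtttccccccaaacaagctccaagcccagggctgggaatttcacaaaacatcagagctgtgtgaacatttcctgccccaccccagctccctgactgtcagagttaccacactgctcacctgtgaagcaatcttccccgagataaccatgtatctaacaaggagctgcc
C/EBP proteins and PU.1 are transcription factors of the granulocyte lineage. The C/EBP motif was found in the windows of 4 of the 10 genes, namely Retnlg, Ly6g, S100a9 and Ngp, and in 9.56% of the 32851 upstream windows of all genes in the same RefSeq table. The PU.1 motif was found for 3 genes, namely Ly6g, S100a8 and Csf3r, against 10.6% of all windows. Both motifs stood before Ly6g, at 232 to 225 and at 31 to 25 bases before the start, while the single C/EBP match of Retnlg began 246 bases before it. The matched letters did not separate the genes that rose from those that did not, since S100a9 holds the same motif as Retnlg, and they describe sequence only.

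Total counts per library were 18452327 to 19170258 in KPC knockout, 17902867 to 19302932 in KPC wild type, 18963859 to 19072437 in ID8 knockout and 19450799 to 19727536 in ID8 wild type. Levels are given as CPM, the count relative to library size, scaled by the trimmed mean of M values (TMM) within a line and not divided by gene length, so they compare samples and not genes. Trp53bp1 itself stood at 27.9 to 37.9 CPM in KPC knockout libraries and 46.7 to 56.0 CPM in KPC wild-type libraries, with a log2 fold change of -0.59 (edgeR SE 0.0898, adjusted p = 0.00400). In ID8 it stood at 17.8 to 18.8 CPM in knockout and 44.1 to 49.4 CPM in wild-type libraries. Libraries within each KPC group differed in their markers of other tissues, with the skeletal muscle gene Acta1 at 2.12 to 1593 CPM in knockout and 173 to 7583 CPM in wild type, and the keratinocyte gene Krt5 at 0 to 19.6 CPM in knockout and 0 to 188 CPM in wild type. Krt5 was above 10 CPM in knockout library 1 and in wild-type libraries 3 and 5. Ptprc, the pan-leukocyte gene CD45, was at 105 to 222 CPM in knockout and 51.0 to 141 CPM in wild type, and its log2 fold change of 1.05 did not pass with edgeR (adjusted p = 0.0596). It passed in 6 of 21 alternatives, namely DESeq2 (adjusted p = 0.00577), limma-voom (0.0164), the replicate block (0.0345), the joint fit (0.0499), the fit without the libraries of Acta1 above 1000 CPM (0.0231) and the fit without wild-type library 4, the highest of its group (log2 fold change 1.37, adjusted p = 0.00988).

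Over all 14283 genes tested in KPC with edgeR's quasi-likelihood test at an adjusted p of 0.05, 6.67% were higher and 7.01% lower in knockout tumours, and the median log2 fold change was -0.0124. Of the 10 neutrophil genes 8 passed the filter on low counts, 2 were called higher, 0 were called lower and 6 were not called. The same counts, 2 higher and 0 lower, came from an unadjusted p under 0.05, from DESeq2 and from limma-voom, rules under which more genes were called in all. Of all genes tested, 16.3% were higher and 16.2% lower in knockout at an unadjusted p under 0.05, 11.4% and 10.8% with DESeq2, and 11.5% and 10.6% with limma-voom. The groups did not overlap for the same 2 genes, with knockout higher, which was the case for 5.34% of all tested genes. Ly6g reached 10 counts in 5 of 5 knockout and in 0 of 5 wild-type libraries, so it entered the test only through the group in which it was high, and the count over the genes tested is a description. The log2 fold changes of the 8 tested genes had a median of 0.47.

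**Figure D1:**
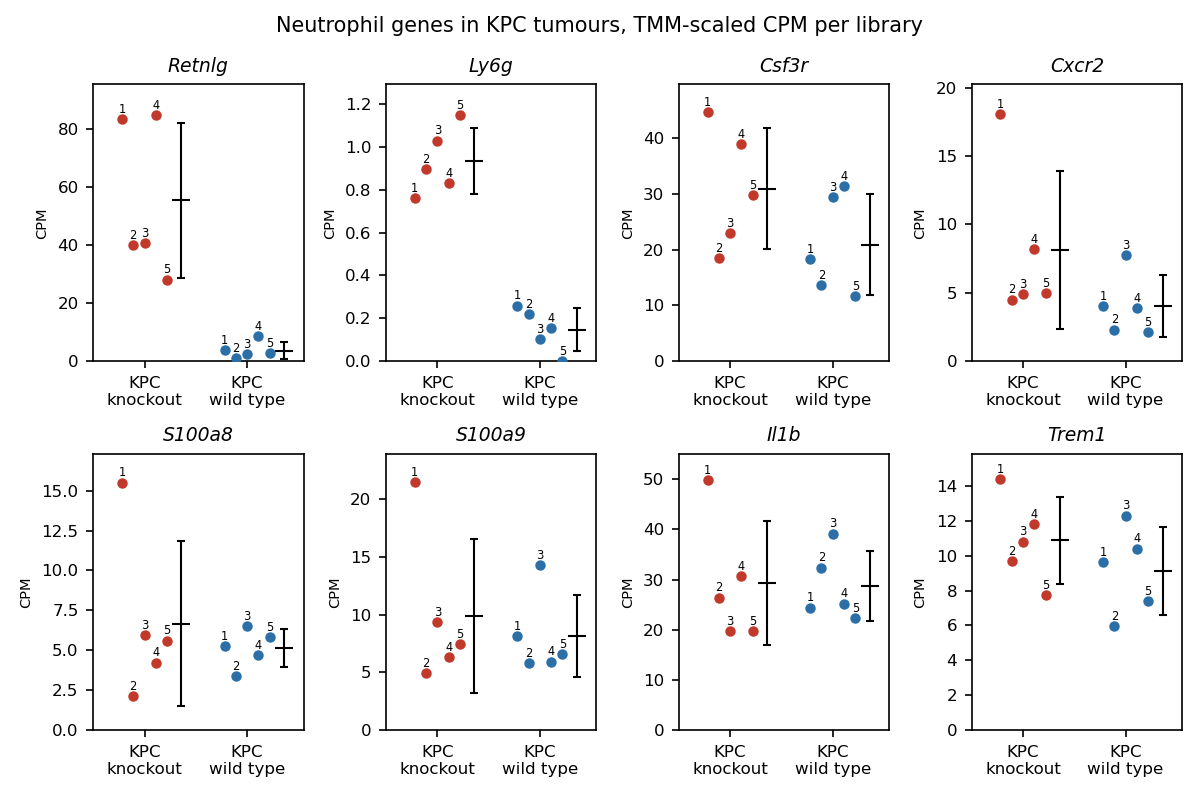
TMM-scaled CPM (vertical axes, starting at 0) of 8 neutrophil genes in 5 knockout (red) and 5 wild-type (blue) KPC tumours, with the library number above each point and the mean and SD as a bar at the right of each group. The groups are apart for Retnlg and Ly6g and overlap for the other genes, in which knockout library 1 is the highest point of all 10.

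Retnlg codes for resistin-like gamma, a small secreted protein of the resistin family that rodent neutrophils and their marrow precursors make. Knockout libraries 1 to 5 held it at 83.4, 40.1, 40.8, 85.0 and 28.1 CPM, against 3.67, 0.871, 2.42, 8.47 and 2.68 CPM in wild-type libraries 1 to 5. The lowest knockout library was thus above the highest wild-type library, and within each genotype library 4 was the highest. In reads, knockout tumours gave 538 to 1534 counts and wild-type tumours 16 to 164 counts. Means were 55.5 ± 26.7 CPM in knockout and 3.62 ± 2.89 CPM in wild type (SD, n = 5 each), and the edgeR log2 fold change was 3.93 (SE 0.561, approximate 95% interval 2.68 to 5.18, adjusted p = 0.00395). Leaving out any 1 library kept the call, with a log2 fold change of 4.52 without wild-type library 4, which is over 1.5 times the fold of all libraries.

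The Retnlg call ended under 2 settings that bear on other cell types in the tumours. Without the 3 libraries of high Krt5 the log2 fold change was 3.48 (adjusted p = 0.0762, edgeR, 4 knockout against 3 wild-type libraries). With the mean log2 level of the pan-leukocyte genes as a covariate it was 2.63 (adjusted p = 0.0666). A covariate for skeletal muscle genes left 3.41 (adjusted p = 0.0168). All libraries without a covariate gave 1953 calls over all genes. There were 315 without high Krt5, 330 with the leukocyte covariate and 400 with the muscle covariate. The knockout libraries left without high Krt5 held Retnlg at 28.1 to 85.0 CPM, and the wild-type ones at 0.871 to 8.47 CPM.

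Ly6g codes for the surface protein by which mouse neutrophils are usually sorted. It was a low transcript throughout. Knockout libraries 1 to 5 had 14, 17, 20, 15 and 22 counts, against 5, 4, 2, 3 and 0 counts in wild-type libraries 1 to 5. The ranges did not touch, and the libraries highest in Retnlg, knockout 1 and 4, had the fewest Ly6g counts of the knockout group. Means were 0.935 ± 0.157 CPM in knockout and 0.147 ± 0.101 CPM in wild type (SD, n = 5 each), with a log2 fold change of 2.61 (SE 0.457, approximate 95% interval 1.60 to 3.62, edgeR adjusted p = 0.00761). Ly6g passed the filter on low counts only through the knockout libraries, so its call is a description. The fitted fold rests on 14 wild-type counts in all. With the leukocyte covariate the value was 2.77 and no longer passed (adjusted p = 0.0722), and under a filter of 1 CPM in 5 libraries Ly6g was not tested. The gene belongs to a family of close copies on mouse chromosome 15, among which the authors' counting can split reads, so its level is uncertain, although its deposited values were whole numbers in all 16 libraries.

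**Figure D2:**
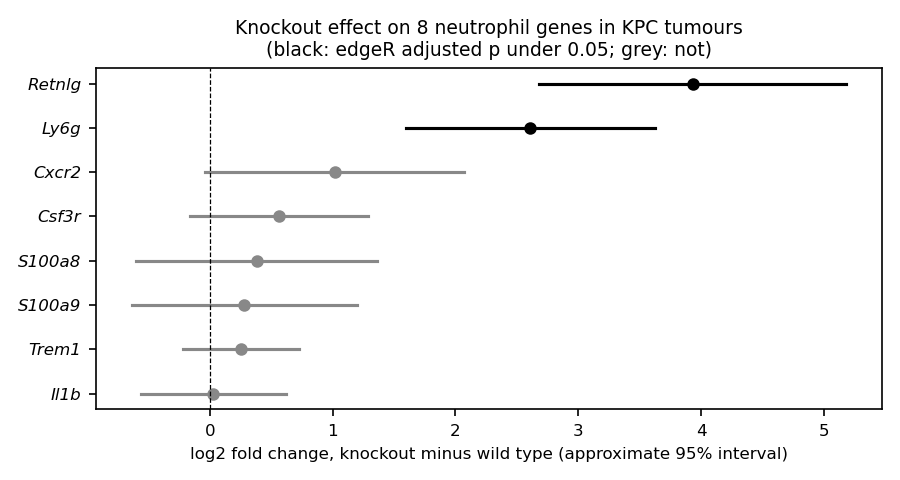
Log2 fold change (knockout minus wild type, horizontal axis) with its approximate 95% interval for the 8 neutrophil genes tested in KPC, black where the edgeR adjusted p was under 0.05. Retnlg and Ly6g lie clear of 0, the interval of Cxcr2 reaches just below 0, and those of the other genes hold 0 well inside.

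The receptors Cxcr2 and Csf3r came next in size. Cxcr2, the receptor through which CXC chemokines call neutrophils out of marrow and into tissue, was at 18.1, 4.49, 4.90, 8.21 and 4.97 CPM in knockout libraries 1 to 5, against 4.03, 2.29, 7.74, 3.87 and 2.13 CPM in wild-type libraries 1 to 5. All 5 knockout libraries were above the wild-type median of 3.87 CPM, but wild-type library 3 lay above 3 of them. Its log2 fold change came to 1.02 (SE 0.476, approximate 95% interval -0.037 to 2.07, edgeR adjusted p = 0.167). Without knockout library 1 it was 0.50 (adjusted p = 0.411). The deposited values of Cxcr2 were not whole in 15 of 16 libraries, so part of its reads was assigned by fractions.

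Csf3r, the receptor of G-CSF, was at 44.7, 18.4, 22.9, 38.9 and 29.8 CPM in knockout libraries 1 to 5, against 18.3, 13.6, 29.4, 31.4 and 11.7 CPM in wild-type libraries 1 to 5. Knockout libraries 1 and 4 were above every wild-type library, and the remainder of both groups overlapped. The log2 fold change was 0.57 (SE 0.327, approximate 95% interval -0.16 to 1.29, edgeR adjusted p = 0.252). Trem1, a receptor that amplifies inflammatory signals in neutrophils and monocytes through the adaptor Tyrobp, ranged from 7.74 to 14.4 CPM in knockout and from 5.94 to 12.3 CPM in wild type. Its log2 fold change came to 0.255 (edgeR SE 0.215, adjusted p = 0.431).

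S100a8 and S100a9 code for the subunits of calprotectin, an abundant protein pair of neutrophil cytosol. S100a8 was at 15.5, 2.11, 5.94, 4.22 and 5.60 CPM in knockout libraries 1 to 5, against 5.28, 3.38, 6.50, 4.70 and 5.80 CPM in wild-type libraries 1 to 5. Knockout tumours thus gave both the highest and the lowest S100a8 level of all 10 libraries. S100a9 followed it, at 21.5, 4.91, 9.34, 6.33 and 7.48 CPM in knockout, against 8.17, 5.77, 14.3, 5.94 and 6.56 CPM in wild type. Log2 fold changes were 0.38 for S100a8 (approximate 95% interval -0.60 to 1.36, edgeR adjusted p = 0.574) and 0.28 for S100a9 (-0.635 to 1.2, adjusted p = 0.667). Without knockout library 1 both had the other sign, at -0.18 for S100a8 and -0.20 for S100a9. The 2 libraries highest in S100a9 were knockout 1 and wild-type 3. Genes of the keratinocyte list, a cell type that can make both proteins, summed to 102 CPM in knockout 1, 732 CPM in wild-type 3 and 126 CPM in wild-type 5, and to at most 31.2 CPM in the other libraries. The part of skin RNA in these levels was not tested beyond the fit without the 3 libraries of high Krt5, in which S100a8 had a log2 fold change of 0.0059 and S100a9 of 0.083.

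Il1b was at 49.9, 26.4, 19.8, 30.7 and 19.7 CPM in knockout libraries 1 to 5, against 24.4, 32.4, 39.2, 25.2 and 22.3 CPM in wild-type libraries 1 to 5. The lowest 2 libraries and the highest were all knockout. The log2 fold change of 0.030 (approximate 95% interval -0.56 to 0.62, edgeR adjusted p = 0.946) changed sign under 9 of 21 alternatives without passing in any.

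Ngp and Camp code for neutrophilic granule protein and cathelicidin, which are made in marrow while the secondary granules form. Ngp had 1, 0, 4, 4 and 1 counts in knockout libraries 1 to 5, against 0, 0, 0, 4 and 0 in wild-type libraries 1 to 5. Camp had 1 count over the 5 knockout libraries and 2 counts over the 5 wild-type libraries. Both were at or near the floor of 3 counts per library, so no fold is given. The low-count filter removed both, and with no filter edgeR gave adjusted p = 0.486 for Ngp and 0.726 for Camp.

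Relative to Ptprc in the same library, the genes split further. Retnlg amounted to 20.5% to 38.3% of the Ptprc level in knockout libraries and 1.54% to 7.20% in wild-type libraries, with no overlap and medians of 38.2% in knockout and 5.24% in wild type. Csf3r ran the other way, at 17.2% to 21.7% of Ptprc in knockout and 22.4% to 35.8% in wild type, also without overlap. Its medians were 17.5% in knockout and 24.0% in wild type. This scale moved most genes the same way. Over all tested genes the median log2 ratio of the group medians relative to Ptprc was -1.28, and 7.34% of genes were lower in knockout without overlap on this scale against 0.462% higher. Il1b had a median of 14.9% in knockout and 43.5% in wild type, and Trem1 one of 6.62% in knockout and 13.2% in wild type. The medians of S100a8 were 4.08% in knockout and 7.01% in wild type, and those of S100a9 5.46% in knockout and 12.8% in wild type. For these 4 genes the ranges overlapped, for Il1b, Trem1 and S100a9 through wild-type library 4 alone. Ly6g was at 0.350% to 0.856% of Ptprc in knockout and 0 to 0.507% in wild type, so its groups overlapped on this scale, and Cxcr2 was at 3.62% to 8.32% in knockout and 2.75% to 8.34% in wild type. These ratios are descriptions with no test, and since both levels lack a correction for length, only their difference between libraries carries meaning.

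**Figure D3:**
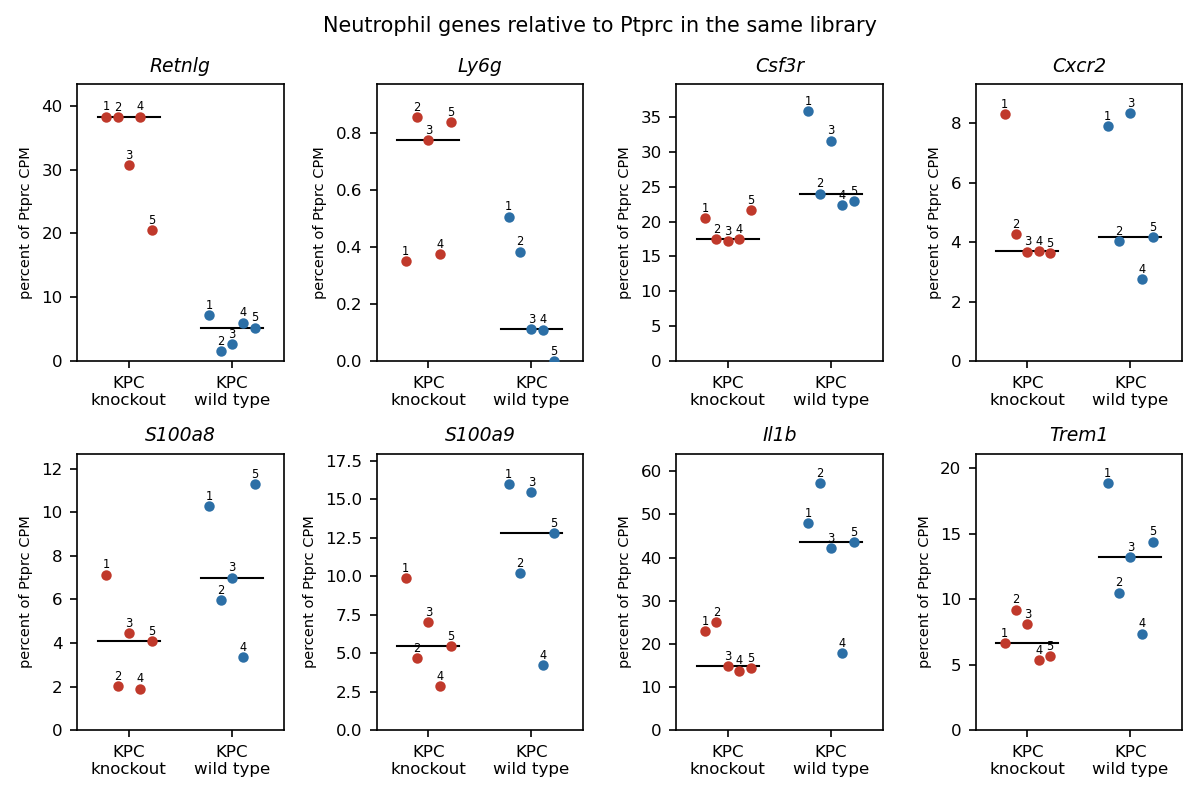
CPM of each neutrophil gene as a percent of the CPM of Ptprc in the same library (vertical axes, starting at 0), for 5 knockout (red) and 5 wild-type (blue) KPC tumours, with the group median as a line and the library number above each point. Retnlg lies higher in knockout and Csf3r lower, without overlap, while the medians of Il1b, Trem1, S100a8 and S100a9 lie lower in knockout with overlapping ranges. Most genes lie lower in knockout on this scale, with a median log2 ratio of -1.28 over all tested genes.

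Within a genotype the genes varied together to unequal degree. After removal of the genotype means, S100a8 and S100a9 had a Pearson r of 0.90 over the 10 KPC libraries, and Cxcr2 with Trem1 one of 0.85. Ly6g stood apart, with r of -0.457 to -0.104 against the other 7 tested genes, and of -0.405 with Retnlg. The mean standardized level of the 8 tested genes was highest in knockout library 1 (1.36) and wild-type library 3 (0.80). Of 12564 candidate genes, those most like this mean were Ralb (r = 0.967), Eno1 (0.963), Arpc3 (0.957), Prelid1 (0.956) and Smim15 (0.954), against 0.97 for Cxcr2 and -0.24 for Ly6g among the neutrophil genes themselves. Without these 2 libraries Ralb had an r of 0.982 and Smim15 of 0.884, while Il1b had one of 0.046. Each neutrophil gene is itself part of the mean, so its r with the mean holds its own share, unlike that of the candidate genes. These correlations describe 10 libraries that share scaling and depth, and they carry no p.

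In the granule lists Elane, Ctsg and Mpo, genes of the primary granule, were at or near 0, while Prtn3, proteinase 3, was low in every library. Elane had 0 to 1 counts in knockout and 0 to 1 in wild type, and Ctsg 0 to 2 counts in knockout and 0 to 2 in wild type. Of 5 primary granule genes 1 was tested and 0 were called, also at an unadjusted p under 0.05 and with DESeq2 or limma-voom. Prtn3 had 16 to 29 counts in knockout and 18 to 26 counts in wild type, and averaged 1.18 ± 0.247 CPM in knockout and 1.13 ± 0.152 CPM in wild type (SD, n = 5 each). Mpo, the gene of myeloperoxidase, was at 0 to 0.217 CPM in knockout and 0 to 0.164 CPM in wild type, and Ms4a3 was at 0 in every KPC library. Of 9 tested genes of secondary and tertiary granules 2 rose and 1 fell with edgeR (median log2 fold change 0.69). At an unadjusted p under 0.05, 5 were higher and 2 lower, with DESeq2 4 and 2, and with limma-voom 3 and 2. The edgeR counts of this list and of those below stand beside 6.67% higher and 7.01% lower over all tested genes. Those at an unadjusted p stand beside 16.3% and 16.2%. Those with DESeq2 stand beside 11.4% and 10.8%, and those with limma-voom beside 11.5% and 10.6%. Mmp9, gelatinase B, averaged 106 ± 34.3 CPM in knockout and 55.2 ± 14.5 CPM in wild type (log2 fold change 0.945, edgeR adjusted p = 0.0338), and Pglyrp1, a peptidoglycan-binding protein that is also a ligand of Trem1, averaged 38.2 ± 9.60 CPM in knockout and 16.3 ± 3.02 CPM in wild type (1.22, adjusted p = 0.00466). Ltf, lactoferrin, was at 0.528 to 1.58 CPM in knockout and 0.826 to 12.7 CPM in wild type (-2.32, adjusted p = 0.0309). The Mmp9 call ended without any 1 library except knockout 3, knockout 5 and wild-type 4 (log2 fold change 0.81 to 0.99), and the Ltf call without any 1 library except wild-type 4 (-2.49 to -1.70).

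Of 18 tested genes of mature and tumour neutrophils 2 rose and 0 fell with edgeR (median log2 fold change 0.555). That share lies near the 6.67% called higher over all tested genes. At an unadjusted p under 0.05, 7 were higher and 0 lower, where 16.3% of all tested genes were higher. DESeq2 gave 4 higher and 0 lower, against 11.4% higher over all. With limma-voom 2 were higher and 0 lower, against 11.5% higher over all. Padi4, the enzyme that citrullinates histones when neutrophils cast out their chromatin, averaged 7.67 ± 4.77 CPM in knockout and 2.68 ± 1.23 CPM in wild type (log2 fold change 1.51, edgeR adjusted p = 0.0448). Osm, the cytokine oncostatin M, averaged 8.21 ± 2.96 CPM in knockout and 4.02 ± 1.05 CPM in wild type (1.03, adjusted p = 0.0361). Neither call held over every library. The Padi4 call ended without any 1 library except knockout 2 and wild-type 4 (1.10 to 1.67), and the Osm call without any 1 except knockout 2, knockout 3 and wild-type 4 (0.86 to 1.10).

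Of 10 tested growth factors, chemoattractants and their receptors 2 rose and 0 fell (median log2 fold change 0.32). Csf2, the growth factor GM-CSF, averaged 4.06 ± 1.71 CPM in knockout and 1.36 ± 0.464 CPM in wild type (log2 fold change 1.57, edgeR adjusted p = 0.0173). Ltb4r1, the receptor for leukotriene B4, averaged 7.82 ± 4.07 CPM in knockout and 2.03 ± 0.776 CPM in wild type (1.94, adjusted p = 0.0115). Csf3, which codes for the ligand of Csf3r, and Cxcl1, Cxcl2, Cxcl3, Cxcl5 and Ppbp, which code for ligands of Cxcr2, were not called. Of 16 genes that act with the neutrophil genes as receptors, adaptors or processing enzymes 5 rose and 0 fell (median log2 fold change 0.40), against 9 higher with DESeq2 and 7 with limma-voom. Over all tested genes 6.67% were higher with edgeR, 11.4% with DESeq2 and 11.5% with limma-voom. The 5 were Pglyrp1, Il1rn, Gsdmd, Pycard and Jak2. Il1rn, the antagonist of the interleukin-1 receptor, averaged 208 ± 25.1 CPM in knockout and 139 ± 14.4 CPM in wild type (0.58, adjusted p = 0.00629), and Gsdmd, the pore protein through which interleukin-1 beta leaves cells, averaged 122 ± 12.6 CPM in knockout and 93.3 ± 7.28 CPM in wild type (0.39, adjusted p = 0.0160). Both were also read in the ID8 libraries, which had 0 counts of Ptprc. There Il1rn stood at 198 to 212 CPM in knockout and 203 to 218 CPM in wild type. Gsdmd stood at 94.3 to 97.2 CPM in ID8 knockout and 135 to 138 CPM in ID8 wild type. Which cells gave these reads in KPC tumours was not tested.

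Of 6 granulocyte transcription factors 2 rose and 1 fell (median log2 fold change 0.61). Cebpe, a C/EBP factor required for the late maturation of neutrophils and eosinophils, was at 11.5, 4.39, 4.75, 10.1 and 3.19 CPM in knockout libraries 1 to 5, against 0.621, 0.490, 0.310, 1.29 and 0.164 CPM in wild-type libraries 1 to 5. The knockout libraries stood in the order of Retnlg but for an exchange of 1 and 4, and the log2 fold change reached 3.54 (edgeR SE 0.547, adjusted p = 0.00445). The ratio of Retnlg to Cebpe was 7.27 to 9.14 in the knockout libraries and 1.78 to 16.3 in the wild-type libraries, so the groups overlapped on that scale. Cebpe had only 12, 9, 6, 25 and 3 counts in wild-type libraries 1 to 5. Its fold and the wild-type ratios thus rest on few reads, and the knockout libraries carried it past the low-count filter. With the leukocyte covariate Cebpe did not pass (2.02, adjusted p = 0.0664). Gfi1, a repressor of the granulocyte lineage, averaged 2.27 ± 0.476 CPM in knockout and 1.13 ± 0.352 CPM in wild type (1.00, adjusted p = 0.0265), and Runx1, a factor of blood stem and progenitor cells, averaged 99.9 ± 6.34 CPM in knockout and 120 ± 9.11 CPM in wild type (-0.27, adjusted p = 0.0296). The Gfi1 call ended without any 1 library except knockout 1, 2 and 5 and wild-type 4 (0.88 to 1.06), and the Runx1 call without any 1 except knockout 2 and wild-type 2, 3 and 4 (-0.275 to -0.229). Runx1 was also read in ID8, at 54.8 to 56.9 CPM in knockout and 46.4 to 54.3 CPM in wild type.

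Most tested eosinophil genes were also called higher in knockout tumours. Of 6 tested eosinophil genes 5 rose (Siglecf, Ccr3, Prg2, Ear2 and Alox15) and 0 fell, the median log2 fold change was 3.05, and the 9 genes of the list summed to 250 to 431 CPM in knockout and 147 to 225 CPM in wild type. Siglecf, the surface lectin by which mouse eosinophils are sorted, was at 21.7, 10.8, 9.29, 29.0 and 6.12 CPM in knockout libraries 1 to 5, against 3.00, 3.65, 2.73, 2.94 and 2.02 CPM in wild-type libraries 1 to 5 (log2 fold change 2.42, edgeR adjusted p = 0.00700). Alox15, a lipoxygenase of eosinophils and some macrophages, averaged 44.4 ± 24.0 CPM in knockout and 4.26 ± 1.56 CPM in wild type (3.38, adjusted p = 0.00109), and Prg2, major basic protein, averaged 4.58 ± 2.40 CPM in knockout and 0.323 ± 0.399 CPM in wild type (3.79, adjusted p = 0.00750). Prg2 had only 2, 3, 4, 20 and 2 counts in wild-type libraries 1 to 5. Its fold thus rests on few reads, and the knockout libraries carried it past the low-count filter. Epx, eosinophil peroxidase, had 0 to 2 counts in knockout and 0 to 3 counts in wild type. Knockout libraries 1 and 4 were highest in Retnlg, Cebpe, Siglecf and Alox15 alike, and knockout library 5 was lowest in each. The same libraries 1 and 4 were highest of the knockout group in Ptprc (218 and 222 CPM), Adgre1, Csf3r, Cxcr2 and Ly6c2. Their place on top was thus shared with general leukocyte genes and not particular to eosinophil genes. In wild type Retnlg, Cebpe and Alox15 were highest in library 4, but Siglecf was highest in library 2, where Retnlg was lowest. Retnlg was 2.93 to 4.60 times Siglecf in knockout and 0.239 to 2.88 times in wild type, without overlap, and 1.01 to 1.68 times Alox15 in knockout and 0.239 to 1.21 times in wild type, with overlap. Siglecf did not pass with the leukocyte covariate (1.48, adjusted p = 0.284), with the muscle covariate (1.94, adjusted p = 0.0675) or without the libraries of high Krt5 (2.11, adjusted p = 0.106), while Alox15 passed in all 21 alternatives. The part of eosinophils in the Retnlg and Cebpe levels was not tested.

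**Figure D4:**
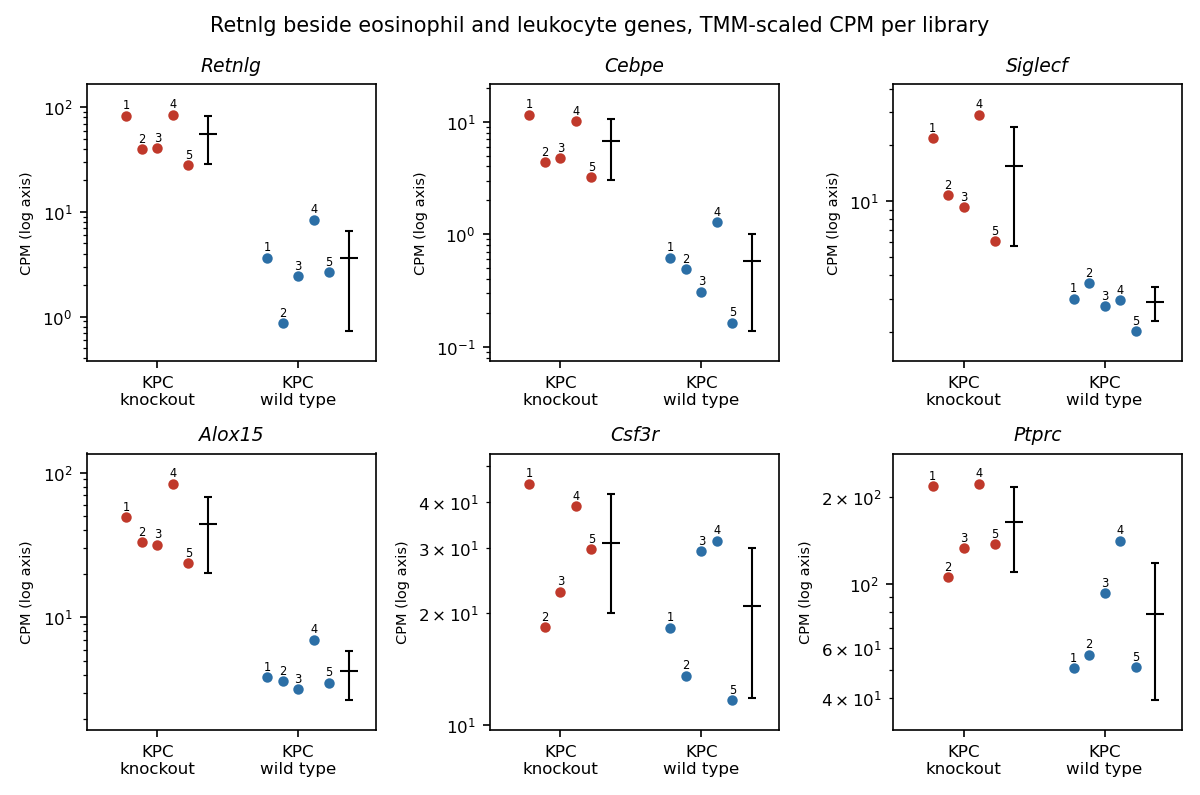
TMM-scaled CPM on logarithmic axes of Retnlg, Cebpe, Siglecf, Alox15, Csf3r and Ptprc in 5 knockout (red) and 5 wild-type (blue) KPC tumours, with library numbers above the points and the mean and SD at the right of each group. The groups are apart for Retnlg, Cebpe, Siglecf and Alox15, and they overlap for Csf3r and Ptprc. Knockout libraries 1 and 4 are on top in every panel.

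Other leukocyte lists had positive median log2 fold changes with few calls. Of 4 pan-leukocyte genes 1 rose (Cd52, log2 fold change 1.35, edgeR adjusted p = 0.0217, lost without knockout 1, wild-type 1 or wild-type 2 at 1.2 to 1.29), their median was 1.14, DESeq2 and limma-voom called all 4, and the list summed to 544 to 1128 CPM in knockout and 237 to 668 CPM in wild type. Of 10 macrophage genes 0 were called with edgeR, against 7 higher at an unadjusted p under 0.05, 7 with DESeq2 and 6 with limma-voom, with a median log2 fold change of 0.65 and sums of 2980 to 5377 CPM in knockout and 2231 to 4123 CPM in wild type. Adgre1, the gene of the macrophage antigen F4/80, had a log2 fold change of 0.50 (adjusted p = 0.252) and passed in 2 of 21 alternatives, without wild-type library 4 (0.81, adjusted p = 0.0259) and without the libraries of high Acta1 (1.02, adjusted p = 0.0314). Of 8 monocyte genes (median 0.264) 0 rose and 1 fell, Cx3cr1 (-0.89, adjusted p = 0.00264), against 2 higher and 2 lower at an unadjusted p under 0.05, with DESeq2 and with limma-voom, and the list summed to 4055 to 6292 CPM in knockout and 3779 to 5567 CPM in wild type. Ly6c2, by whose protein and Ly6g's the antibody Gr-1 stains myeloid cells, had a log2 fold change of 1.49 (adjusted p = 0.0889) and passed in 5 of 21 alternatives, namely DESeq2 (adjusted p = 0.0239), limma-voom (0.0252), the replicate block (0.0272), without the libraries of high Acta1 (2.50, adjusted p = 0.0185) and without wild-type library 4 (2.19, adjusted p = 0.00839).

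Of 4 dendritic cell genes 2 rose, Xcr1 (log2 fold change 1.71, edgeR adjusted p = 0.0368) and Cd209a (1.56, adjusted p = 0.0373), the median was 1.62, all 4 were higher at an unadjusted p under 0.05, with DESeq2 and with limma-voom, and the list summed to 59.6 to 115 CPM in knockout and 11.8 to 52.8 CPM in wild type. Each of these calls ended without 6 of the 10 libraries taken singly, for Xcr1 all but knockout 1 and 2 and wild-type 3 and 4 (1.49 to 1.75), and for Cd209a all but knockout 2 and 3 and wild-type 3 and 4 (1.15 to 1.64). Of 5 mast cell genes (median 0.140) 1 rose, Mcpt4 (1.24, adjusted p = 0.0154), with sums of 112 to 154 CPM in knockout and 54.0 to 105 CPM in wild type. Of 4 erythroid genes (median 0.166) 0 were called by edgeR, DESeq2, limma-voom or an unadjusted p under 0.05, and they summed to 72.1 to 201 CPM in knockout and 76.4 to 182 CPM in wild type. Of 6 tested keratinocyte genes 0 were called with edgeR, and 2 were lower at an unadjusted p under 0.05 and with DESeq2 (median log2 fold change -1.38, sums of 20.6 to 102 CPM in knockout and 26.9 to 732 CPM in wild type). Of 8 skeletal muscle genes 0 were called with edgeR, at an unadjusted p under 0.05 or with DESeq2, and 1 was lower with limma-voom (median -2.05, sums of 8.93 to 6707 CPM in knockout and 615 to 33609 CPM in wild type). Of the genes of these lists named with a passing p, Alox15 alone stayed called with the leukocyte covariate, and Alox15, Cebpe, Pglyrp1 and Cx3cr1 without the libraries of high Krt5. With the leukocyte covariate 330 genes were called in all, and Trp53bp1 itself did not pass (-0.395, adjusted p = 0.107). Cd52 is part of that covariate. With the muscle covariate the calls of Siglecf, Mmp9, Padi4, Osm, Ltb4r1, Gsdmd, Gfi1, Runx1, Mcpt4, Cd52, Xcr1 and Cd209a ended, with adjusted p of 0.0637 to 0.217 and the signs as before. The part of leukocyte content as a whole in the neutrophil gene levels was not tested beyond the fit with its covariate, in which 0 of the neutrophil genes passed, and Csf3r, Cxcr2, S100a8, S100a9, Il1b and Trem1 had negative log2 fold changes of -0.66 to -0.27.

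In the ID8 samples, described by the labels as tumours, these genes were at or below the limit of detection. S100a9, Il1b, Retnlg, Trem1, Ngp and Ly6g had 0 counts in all 3 knockout and all 3 wild-type libraries. S100a8 and Csf3r each had 1 count, in knockout library 3, and Camp had 0, 1 and 1 counts in knockout and 0, 1 and 0 counts in wild type. Cxcr2 was the exception, with 2, 6 and 4 counts in knockout libraries 1 to 3, against 12, 5 and 8 counts in wild-type libraries 1 to 3. The filter on low counts removed all 10 genes from the 11933 tested in ID8, and with no filter Cxcr2 had a log2 fold change of -1.07 (edgeR adjusted p = 0.125), the smallest p of the 4 listed genes, with an unadjusted p of 0.0593. Ptprc also had 0 counts in all 6 ID8 libraries, and the pan-leukocyte genes summed to 0.103 to 0.204 CPM in knockout and 0.157 to 0.211 CPM in wild type, so marks of leukocytes were at or near 0. Adgre1, Siglecf, Cx3cr1, Ly6c2 and Ccr2 likewise had 0 counts in all 6. Erythroid genes summed to 0 to 0.0513 CPM in ID8 knockout and 0.105 to 0.158 CPM in ID8 wild type. In KPC they summed to 72.1 to 201 CPM in knockout and 76.4 to 182 CPM in wild type. Levels at or near 0 were thus not confined to neutrophil genes. Other lists, such as those of monocyte, macrophage and dendritic cell genes, did hold reads in ID8, from cells that were not identified. Whether the ID8 samples held host cells was not tested. Counts of 0 give an upper limit of 3 counts per library, for counting error only, and a knockout effect on these genes in ID8 was not detectable.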

How the data were processed

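Per the submitters' processing notes, HISAT and RSEM 1.2.8 were used with GRCm39 (mm39). The authors deposited expected counts without further scaling, as the values show, and 7.92% to 8.96% of the values in a table are fractional. They were rounded, and genes that a table does not list were set to 0. KPC and ID8 were each fitted alone with edgeR 4.0.16 (R 4.3.3): TMM scaling, filterByExpr (minimum count 10), robust quasi-likelihood tests with Benjamini-Hochberg adjustment over all genes tested, at 0.05. Standard errors are approximate, since they were derived from the F statistic. The procedure was tested on simulated data. No pair of replicates agreed within sampling noise (lowest chi-square per gene 4.24). Same-numbered samples of the 2 genotypes did not deviate together, so no block was used.

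The genes, lists and alternatives were chosen with earlier results of these data known. Named were all 10 neutrophil genes, up to 3 called genes of smallest adjusted p per list, Ptprc, Adgre1, Siglecf, Ly6c2, Acta1, Krt5 and Trp53bp1, and the 5 genes most like the mean. Pycard, Jak2, Ccr3, Ear2, Epx, Elane, Ctsg, Mpo, Ms4a3, Ccr2 and the CXC ligands were named with their values in view.

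The alternatives tried were RLE size factors, DESeq2 1.42.0, limma-voom (limma 3.58.1) with quality weights, other filters, a replicate block, a joint fit, a skeletal muscle covariate, leaving out the libraries whose Acta1 exceeded 1000 CPM, and leaving out each library. Removal of libraries with Krt5 above 10 CPM and a leukocyte covariate (mean log2 CPM of Ptprc, Coro1a, Laptm5 and Cd52) were added after seeing the data. RefSeq upstream sequences (GRCm38.p6) matched all 10 genes, with 11 start sites. The first bases after the RefSeq starts of Retnlg and Trem1 were not found in the GENCODE M21 transcripts of those genes, and the start was not checked further.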

Additional observations from a re-analysis of the deposited data

Results flagged for a closer look

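In 7 of 26 groups of 5 KPC libraries examined (the 8 tested neutrophil genes, Ptprc, Siglecf, Cebpe, Krt5 and Acta1), 1 library lay far from the other 4, with a gap to its neighbour above 0.710 of the group's whole range (Dixon's 95% value). Chance gives such a library in about 1 in 20 groups, and the groups share libraries. Knockout library 1 was far above its group in S100a8 (15.5 CPM, next 5.94 CPM), S100a9 (21.5 CPM, next 9.34 CPM), Cxcr2 (18.1 CPM, next 8.21 CPM) and the keratinocyte gene Krt5 (19.6 CPM, next 2.55 CPM). Wild-type library 3 was far above its group in S100a9 (14.3 CPM, next 8.17 CPM) and Krt5 (188 CPM, next 20.3 CPM). Wild-type library 2 was far above its group in the muscle gene Acta1 (7583 CPM, next 1865 CPM). For Retnlg and Ly6g no library stood apart by this measure.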

How the results depend on the processing

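Retnlg and Ly6g stayed called in most alternatives. Retnlg kept its side of the threshold in 19 of 21 and Ly6g in 19 of 20. Log2 fold changes were 2.63 to 4.60 for Retnlg and 2.18 to 2.93 for Ly6g. For Ly6g these repeated calls are a description, since it reached 10 counts in 5 of 5 knockout and in 0 of 5 wild-type libraries. The number of neutrophil genes called higher was 2 except under a filter of 1 CPM in 5 libraries (1, Ly6g not tested), without libraries of Krt5 above 10 CPM (1) and with the leukocyte covariate (0). The number of all genes called (1953) was 3162 with DESeq2, 3149 with limma-voom, 3524 in the joint fit, 400 with the muscle covariate, 315 without libraries of high Krt5, 330 with the leukocyte covariate and 934 to 3106 on leaving out 1 library, the highest without wild-type 4. Without libraries of Acta1 above 1000 CPM, which left 3 knockout and 3 wild-type libraries, it was 2020. The cause of these differences was not tested. With the replicate block, 1665 genes and the same number of neutrophil genes (2) were called. The numbers did not pair the samples: deviations of same-numbered libraries correlated at -0.154, 0.545, 0.181, 0.334 and -0.534, and only for number 2 was the same-numbered library the best match. Signs turned in genes that did not pass. With limma-voom S100a8 had -0.0295 and Il1b -0.26; with the block Il1b had -0.0273. With the muscle covariate S100a8 had -0.21, S100a9 -0.25, Il1b -0.13, Trem1 -0.0293 and Acta1 0.00266. With the leukocyte covariate S100a8 had -0.535, S100a9 -0.66, Csf3r -0.57, Cxcr2 -0.52, Il1b -0.625, Trem1 -0.27, Ptprc -0.0766, Adgre1 -0.48 and Ly6c2 -0.16. Acta1 is part of the muscle covariate and Ptprc of the leukocyte covariate, so their values near 0 there follow from the covariate's construction. Without libraries of high Krt5 Il1b had -0.18. On leaving out 1 library, S100a8 ran from -0.181 to 0.634, S100a9 from -0.2 to 0.584, Il1b from -0.235 to 0.168 and Prtn3 from -0.0199 to 0.19. In ID8, 0 neutrophil genes were called in every alternative run. That outcome was all but fixed, since 0 of them passed the low-count filter in the main ID8 fit. Low counts limit Ly6g, Ngp, Camp and all of ID8.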
